A study of Mus musculus with 10 samples.

Results

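The Zfp36 family of mRNA decay factors, 3 of the 8251 genes named on the array and 5 of its 12422 non-control probe sets, was measured in mouse visual cortex that had lost or kept its main eye input. Members were all probe sets whose annotated gene symbol is Zfp36 (1 probe set), Zfp36l1 (1) or Zfp36l2 (3). The family was chosen partly because 1 probe set of Zfp36l2, 160273_at, was lower in deprived cortex in these same arrays, so the differences between groups of its probe sets are given here as a description, without a test. All mice were wild-type (C57Bl6); they lost one eye at postnatal day 14, and tissue was collected at postnatal day 18, after 4 days. The 5 deprived samples are visual cortex contralateral to the enucleation, and the 5 non-deprived samples ipsilateral cortex, with 1 array per sample. Both groups therefore come from enucleated animals, and no intact cortex was compared. The labels mention pooled samples and 4 mice without saying how animals were divided over samples, so errors measure the variation among these samples, which may in part be technical.

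Zfp36 proteins bind AU-rich elements in the 3′ untranslated regions of mRNAs through a pair of CCCH zinc fingers and bring in the CCR4-NOT complex, which shortens the poly(A) tail. The mRNA is then decapped or degraded by the exosome. Zfp36, also called tristetraprolin, is itself an early-response gene in stimulated cells, and its best studied targets are cytokine mRNAs in macrophages and mRNAs of other early-response genes. The kinase MK2, downstream of p38, phosphorylates the protein, after which 14-3-3 proteins bind it and decay slows.

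The sequence upstream of Zfp36l2 was not in the sources used here and was not searched. The sequences just upstream of the other 2 genes are shown because they differ in the early-response motifs they carry. They are the 250 bases before the annotated start in RefSeq (build GRCm38.p6), with motif matches in capitals, searched on both strands.
Zfp36, chr7:28379229-28379478, minus strand: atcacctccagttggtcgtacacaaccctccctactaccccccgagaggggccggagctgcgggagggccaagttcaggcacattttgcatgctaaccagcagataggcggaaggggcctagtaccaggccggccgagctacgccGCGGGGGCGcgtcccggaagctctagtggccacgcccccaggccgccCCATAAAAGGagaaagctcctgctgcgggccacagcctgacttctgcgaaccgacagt
Zfp36l1, chr12:80113014-80113263, minus strand: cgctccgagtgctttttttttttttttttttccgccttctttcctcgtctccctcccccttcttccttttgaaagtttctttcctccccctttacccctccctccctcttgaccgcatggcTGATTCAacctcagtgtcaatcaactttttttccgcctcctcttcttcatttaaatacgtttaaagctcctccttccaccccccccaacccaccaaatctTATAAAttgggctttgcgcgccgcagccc
In Zfp36 the capitals mark GCGGGGGCG, the core bound by Egr factors, 105 bases upstream of the start, and a CArG box, the element of serum response factor, 58 bases upstream. In Zfp36l1 they mark TGATTCA at 129 bases and a TATA box (TATAAA) at 29 bases. TGATTCA matches TGANTCA, a loose pattern for the AP-1 motif of Fos and Jun proteins in which N is any base. Whether the form with T in the middle is bound by them was not examined. Neither window held the CRE motif TGACGTCA. Of 32851 such windows, 2.57% held the Egr core, 1.47% a CArG box, 6.75% the loose AP-1 pattern, 12.4% TATAAA and 1.55% the CRE motif. A match describes the letters and says nothing of binding in this tissue.

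Array signals were scaled to a common level: the median signal of the non-control probe sets lay between 191 and 209 arbitrary units on the 10 arrays. Differences are log2(signal + 16), deprived minus non-deprived, with the standard error (SE) from a limma fit over the 7453 probe sets at or above the 40th percentile of mean log2 signal. In that fit 0 of 7453 probe sets (0%) passed an adjusted p of 0.05, with a smallest adjusted p of 0.0503; at an unadjusted p under 0.05, 2.36% were lower and 2.43% higher in deprived cortex. The groups did not overlap for 0.953% of tested probe sets. Of the 5 family probe sets, 4 were tested. None of these 4 passed the adjusted threshold in limma, and for none of the 5 were the groups free of overlap. Since the family was chosen from this contrast, nothing is read from these counts. Markers of the tissue were present: 5 of 6 listed neuronal genes were measured and all 5 were tested, among them Snap25, a vesicle fusion protein, at 13053 ± 679 in deprived and 12765 ± 581 in non-deprived cortex (SD, n = 5 each).

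Zfp36l2, which in mice is needed for blood stem cells and for maturing oocytes, had lower signals in deprived cortex on 160273_at and not on its second tested probe set. On 160273_at, deprived replicates 1 to 5 had signals of 537.9, 623.7, 613.6, 662.5 and 726.8. Non-deprived replicates 1 to 5 had 641.8, 955.2, 899.1, 786.9 and 908.5. All 5 deprived arrays lay below the non-deprived median of 899. The groups overlapped through non-deprived replicate 1, which was lower than deprived replicates 4 and 5. The means were 633 ± 69.2 and 838 ± 126 (SD, n = 5 each), a difference of -24.5%. On the log2 scale the difference was -0.39 ± 0.12 (SE), and it ranged from -0.48 to -0.33 when single arrays were left out. In a bulk sample, fewer cells that express the gene and less RNA per cell cannot be told apart.

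The other probe sets of Zfp36l2 were designed from a different sequence record. On 93944_r_at, a set of relaxed design rules, deprived replicates 1 to 5 had signals of 470, 468.1, 309.1, 410.9 and 195.7. Non-deprived replicates 1 to 5 had 431.5, 366.2, 329.7, 399 and 309.9. Here the deprived arrays enclosed the non-deprived range: 2 lay above it and 2 below. The means were 371 ± 118 and 367 ± 49.6 (SD, n = 5 each), and the log2 difference was -0.04 ± 0.20 (SE). Without deprived replicate 5, the lowest of the 10 arrays, it was 0.16. On 93943_f_at, a family-type set of the same record, all 10 signals lay between 6.5 and 20.4, close to 15.6, the level that 10% of the table's values fall under, and it was not tested.

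**Figure D1:**
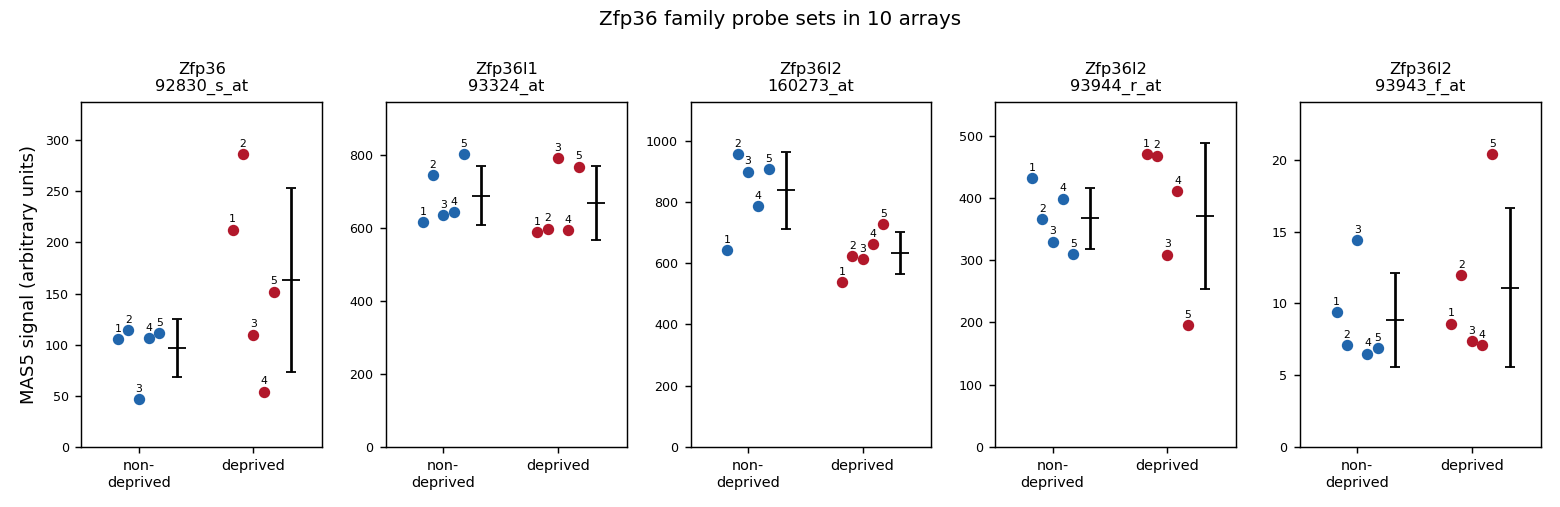
MAS5 signal (arbitrary units, axis from 0) of the 5 Zfp36 family probe sets on the 10 arrays. Points are arrays, numbered by replicate; bars show mean and SD (n = 5). On 160273_at the deprived arrays lie between 537.9 and 726.8 and the non-deprived ones between 641.8 and 955.2, while on Zfp36 the deprived arrays spread from 54.1 to 286.2.

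Within groups, the 2 tested probe sets of Zfp36l2 tended to move in opposite directions from array to array. After each group's mean was subtracted, their log2 signals had a Pearson r of -0.623 over the 10 arrays (exact two-sided permutation within groups, p = 0.0234; adjusted p = 0.117) and a Spearman rho of -0.709 (exact p = 0.0204; adjusted p = 0.102). This relation, and 9 others among the 4 tested family probe sets and the actin control, were computed after the values had been seen, and none passed after adjustment over the 10. Without the 2 arrays farthest from the median of 160273_at, r was -0.57. The ratio of 160273_at to 93944_r_at ran from 1.14 to 3.71 in deprived arrays, with a median of 1.61, and from 1.49 to 2.93 in non-deprived arrays, with a median of 2.61. Deprived replicate 5 had the highest ratio of all 10 and deprived replicate 1 the lowest.

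**Figure D2:**
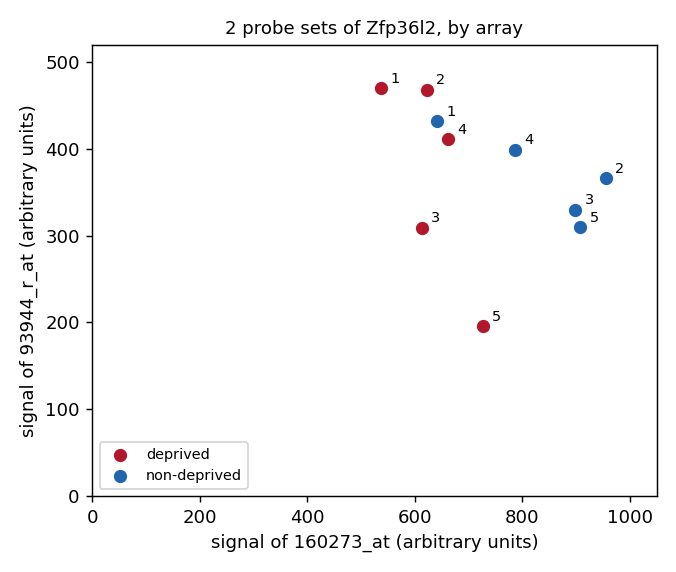
Signals of 160273_at (x axis) and 93944_r_at (y axis), both probe sets of Zfp36l2, in arbitrary units; each point is 1 array, numbered by replicate and coloured by group. Deprived replicate 1 (537.9 and 470) and deprived replicate 5 (726.8 and 195.7) mark the 2 ends of the deprived group.

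The 3′ over 5′ signal ratio of the array's actin controls, a measure that goes up as RNA degrades, lay between 1.43 and 1.7 in deprived and between 1.45 and 1.9 in non-deprived arrays. Its r with the deviations of 93944_r_at was -0.552 (exact permutation p = 0.0606; adjusted p = 0.202; rho -0.503, exact p = 0.165; r -0.608 without the 2 farthest arrays). With 160273_at it was 0.352 (exact permutation p = 0.384; adjusted p = 0.635; rho 0.2, exact p = 0.606; r 0.155 without the 2 farthest arrays). With Zfp36 (92830_s_at) it was -0.501 (exact permutation p = 0.108, adjusted p = 0.216). The rho was -0.515 (exact permutation p = 0.158), and r was -0.697 without the 2 farthest arrays. With Zfp36l1 it was 0.24 (exact permutation p = 0.508, adjusted p = 0.635). The part of RNA quality in these signals, or in the disagreement of the Zfp36l2 probe sets, was not tested further.

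Zfp36l1, which acts with Zfp36l2 in lymphocyte development in mice, had similar signals in the groups. On its 1 probe set, 93324_at, deprived replicates 1 to 5 had signals of 587.1, 596.9, 789.2, 593.8 and 766.8. Non-deprived replicates 1 to 5 had 614.5, 744.6, 633.8, 642.8 and 800.2. Both groups held lower and higher arrays: deprived replicates 1, 2 and 4 lay below every non-deprived array, and the highest array was non-deprived replicate 5. The means were 667 ± 102 and 687 ± 80.9 (SD, n = 5 each), with a log2 difference of -0.05 ± 0.12 (SE). Its deviations within groups had an r of -0.778 with those of 93944_r_at (exact permutation p = 0.0156; adjusted p = 0.117; rho -0.867, exact p = 0.00868, adjusted p = 0.0868; r -0.839 without the 2 farthest arrays). With 160273_at the r was 0.556 (exact permutation p = 0.105; adjusted p = 0.216; rho 0.515, exact p = 0.137; r 0.686 without the 2 farthest arrays).

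Zfp36 itself had a higher mean in deprived cortex, carried by arrays that spread widely. On 92830_s_at, a set whose sequence is shared between transcripts, deprived replicates 1 to 5 had signals of 212.6, 286.2, 109.8, 54.1 and 151.9. Non-deprived replicates 1 to 5 had 105.5, 114.1, 46.8, 106.1 and 111.3. Deprived replicates 1, 2 and 5 lay above all non-deprived arrays, whereas deprived replicate 4 was near the lowest array, non-deprived replicate 3. The highest deprived array was 5.29 times the lowest. The means were 163 ± 90.1 and 96.8 ± 28.2 (SD, n = 5 each), and the log2 difference was 0.55 ± 0.34 (SE). It was 0.31 without deprived replicate 2, 0.35 without non-deprived replicate 3 and 0.84 without deprived replicate 4. The probe set lay just inside the filter, with a mean log2 signal of 7.042 against a threshold of 7.036, and dropped below it in 6 of 18 alternative settings. Every non-deprived array lay below that threshold (highest 7.02), so the probe set passed the filter only through deprived arrays. A filter passed in this way favours a higher estimate in deprived cortex. Its deviations had an r of -0.259 with those of 160273_at and 0.0177 with those of Zfp36l1 (exact permutation p = 0.451 and 0.951; adjusted p = 0.635 and 0.951; rho -0.139 and -0.115, exact p = 0.726 and 0.784; r -0.0885 and -0.655 without the 2 farthest arrays).

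The genes most like each member were ranked by the Pearson r of log2 signals over the 10 arrays among 5657 other genes with a tested probe set. These values share arrays and scaling, include any group difference and are a description. For Zfp36l2 (160273_at) the 5 highest were Rab6a, a Golgi GTPase (r = 0.922), Fos, a subunit of the AP-1 factor (0.892), Pcbp1, a poly(C)-binding protein of mRNA 3′ ends (0.881), Dusp1, a MAP kinase phosphatase (0.879), and Enah, an actin regulator (0.863). After group means were subtracted, r was 0.819 for Rab6a, 0.74 for Fos, 0.845 for Pcbp1, 0.709 for Dusp1 and 0.684 for Enah. In that order, their ranks among the 5657 genes were then 16, 46, 7, 76 and 92. Fos had signals of 1432.4, 1992.6, 2531.2, 2370.4 and 2016.4 in deprived replicates 1 to 5. In non-deprived replicates 1 to 5 it had 2897, 4585.2, 4124.1, 3582.6 and 3769. Deprived replicate 1 was the lowest of the 10 arrays for both Fos and Zfp36l2. Within the non-deprived group, replicate 1 was lowest and replicate 2 highest for both genes. Within the deprived group the highest array differed: replicate 3 for Fos and replicate 5 for Zfp36l2.

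**Figure D3:**
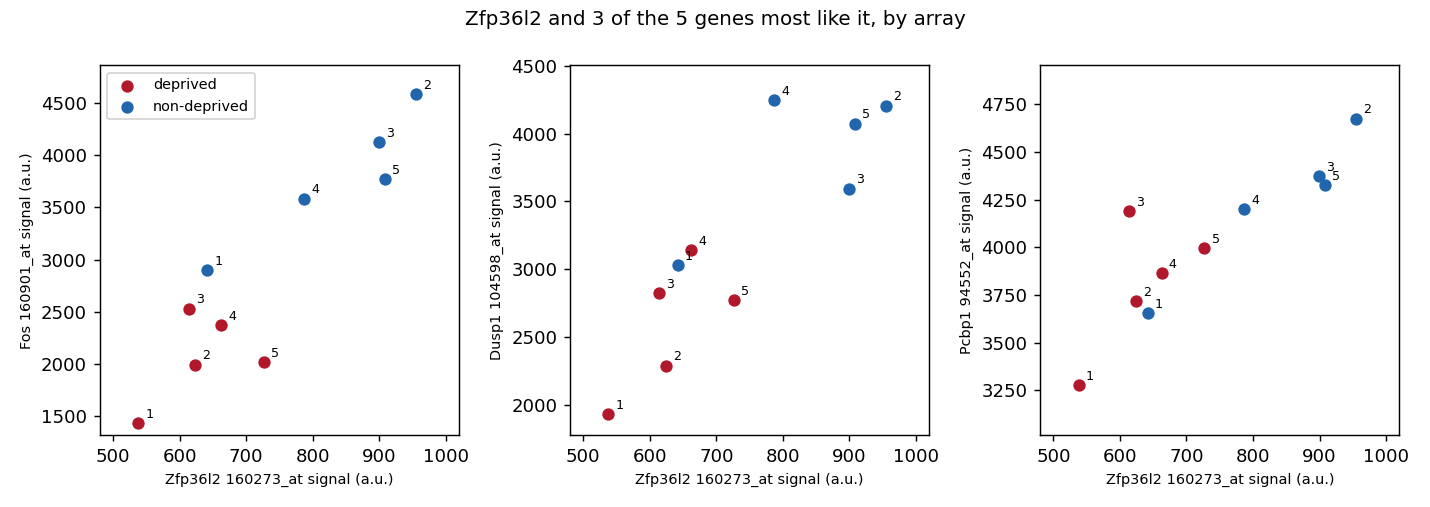
Signals of Fos, Dusp1 and Pcbp1 (y axes) against Zfp36l2 160273_at (x axis), in arbitrary units on axes that do not start at 0; each point is 1 array, numbered by replicate and coloured by group. Deprived replicate 1 is lowest in all 3 panels (Fos 1432.4, Dusp1 1933.1, Pcbp1 3275.7) and non-deprived replicate 2 is highest for Fos (4585.2) and Pcbp1 (4673.4).

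For Zfp36l1 the most similar pattern was that of H2-Q1, an MHC class I gene read by a family-type probe set (r = 0.963, and 0.973 within groups). It was followed by Scp2, a sterol carrier (0.914), Rimklb (0.878), the splicing factor Sfpq (0.855) and the zinc transporter Slc30a5 (0.843). For Zfp36 the closest were Kcnn4, a calcium-activated potassium channel (0.915), Raly, an RNA-binding protein (0.907), the amino acid transporter Slc38a4 (0.906), the kinase Riok3 (0.898) and Flii, an actin-binding protein (0.868). None of these 10 genes appeared among the 5 of another member.

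The list of reported or candidate targets of the family was drawn from general knowledge and mostly from tissues other than brain. No target passed the adjusted threshold in the main fit, which does not pair the samples. Without non-deprived replicate 1, Fos did. With the replicate number as a block, on all 10 arrays, 2 targets did (Fos and Dusp1). No label states that this number marks shared animals. Of 35 listed targets, 32 were measured and 13 tested. Of the 13, 4 were lower at an unadjusted p under 0.05 and none higher, where 2.36% and 2.43% of all tested probe sets were; 9 estimates were below 0 and 4 above. The median log2 difference of the 13 was -0.09, against 0.0066 over all tested probe sets, and it was 0.00 over all 32 measured targets and -0.04 with every tested probe set counted. With single arrays left out, the median of the tested targets ran from -0.16 (without deprived replicate 3 or non-deprived replicate 1) to -0.03 (without non-deprived replicate 3). It was -0.15 without deprived replicate 4 or non-deprived replicate 2. Without deprived replicate 1 or deprived replicate 3, 14 targets passed the filter, so these medians cover a slightly different list. Fos had means of 2069 ± 424 and 3792 ± 629 (SD, n = 5 each) and a log2 difference of -0.88 ± 0.15 (SE; limma adjusted p = 0.105). Dusp1 had one of -0.57 ± 0.13 (adjusted p = 0.447). Cdkn1a, a cell-cycle inhibitor, had one of -0.37 ± 0.12, and Plk2, a kinase induced by synaptic activity, one of -0.21 ± 0.09 (limma adjusted p = 0.992 for both). Some other members that stimulation induces early lay near 0: Ier3 at 0.06 ± 0.14 (SE), Plk3 at -0.04 ± 0.11 and Socs3 at -0.0022 ± 0.18. Plk3 was read by a set of relaxed design rules and Socs3 by a family-type set. The mean log2 signal of Socs3, 7.147, lay near the filter threshold of 7.036. How well the Plk3 and Socs3 sets follow their genes was not tested. Sgk1 and Pim1, of the same list, were lower, at -0.19 ± 0.12 and -0.19 ± 0.15. Ptgs2, below the filter, had means of 84.8 in deprived and 147.2 in non-deprived cortex. Fos, Dusp1 and Cdkn1a were known to be low from earlier results of the same arrays, so the list is not independent evidence. The cytokine targets were dim: the means in deprived and in non-deprived cortex were 38 and 34.1 for Tnf, 17.5 and 14 for Il6, and 15.6 and 13.1 for Il1b, all below the filter.

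The deadenylation and decay partners lay on both sides of 0. Of 49 listed, 27 were measured and 24 tested, with 11 estimates below 0 and 13 above and a median of 0.03. At an unadjusted p under 0.05, 2 were lower and none higher, where 2.36% and 2.43% of all tested probe sets were. The 2 were Btg2 and Lsm2. Btg2, an early-response gene whose protein binds the deadenylase subunit Cnot7, had a log2 difference of -0.64 ± 0.13 (SE, limma adjusted p = 0.326). It passed the adjusted threshold without non-deprived replicate 1. Lsm2, of the Lsm ring that aids decapping, had -0.60 ± 0.23 (limma adjusted p = 0.992). Btg2 had means of 1280 ± 124 and 2023 ± 368 (SD, n = 5 each). Its groups did not overlap, which held for 0.953% of all tested probe sets. Btg1, the relative of Btg2, had a log2 difference of -0.23 ± 0.13 and Lsm7, another Lsm ring subunit, 0.30 ± 0.18 (limma adjusted p = 0.992 for both).

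Among other proteins that bind AU-rich elements or mRNA 3′ ends, 25 of 32 were measured and 20 tested. Of the 20 estimates, 13 were below 0 and 7 above, with a median of -0.07. At an unadjusted p under 0.05, 2 were lower and none higher, where 2.36% and 2.43% of all tested probe sets were. The 2 were Ybx1, a cold-shock mRNA-packaging protein, at -0.18 ± 0.07 (SE), and Ptbp2, the neuronal polypyrimidine tract binder, at -0.37 ± 0.14. Elavl2, a neuronal protein that binds AU-rich elements and stabilises mRNAs, had a log2 difference of -0.25 ± 0.14, and Pcbp1 one of -0.16 ± 0.09. The limma adjusted p was 0.992 for these 4 genes.

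Of the regulators of Zfp36 proteins (p38, MK2 and related kinases, 14-3-3 proteins and phosphatase 2A subunits), 24 of 30 were measured and 20 tested, and none was at an unadjusted p under 0.05 in limma. There were 11 estimates below 0 and 9 above, with a median of -0.02. Ppp2ca, the catalytic subunit of phosphatase 2A, had a log2 difference of -0.19 ± 0.10 (SE), and Ppp2r5c, a regulatory subunit, -0.13 ± 0.08. Mapk14, the p38 alpha kinase, had -0.13 ± 0.08 and Map2k4, a kinase upstream of JNK and p38, -0.19 ± 0.12. Ppp2r1b, a scaffold subunit of the phosphatase, had the highest estimate of the list, 0.54 ± 0.38. Its mean log2 signal of 7.052 lay just inside the filter threshold of 7.036, and its non-deprived mean lay below it. Ppp2r1b was thus tested only through its higher deprived signals. The limma adjusted p was 0.992 for each.

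**Figure D4:**
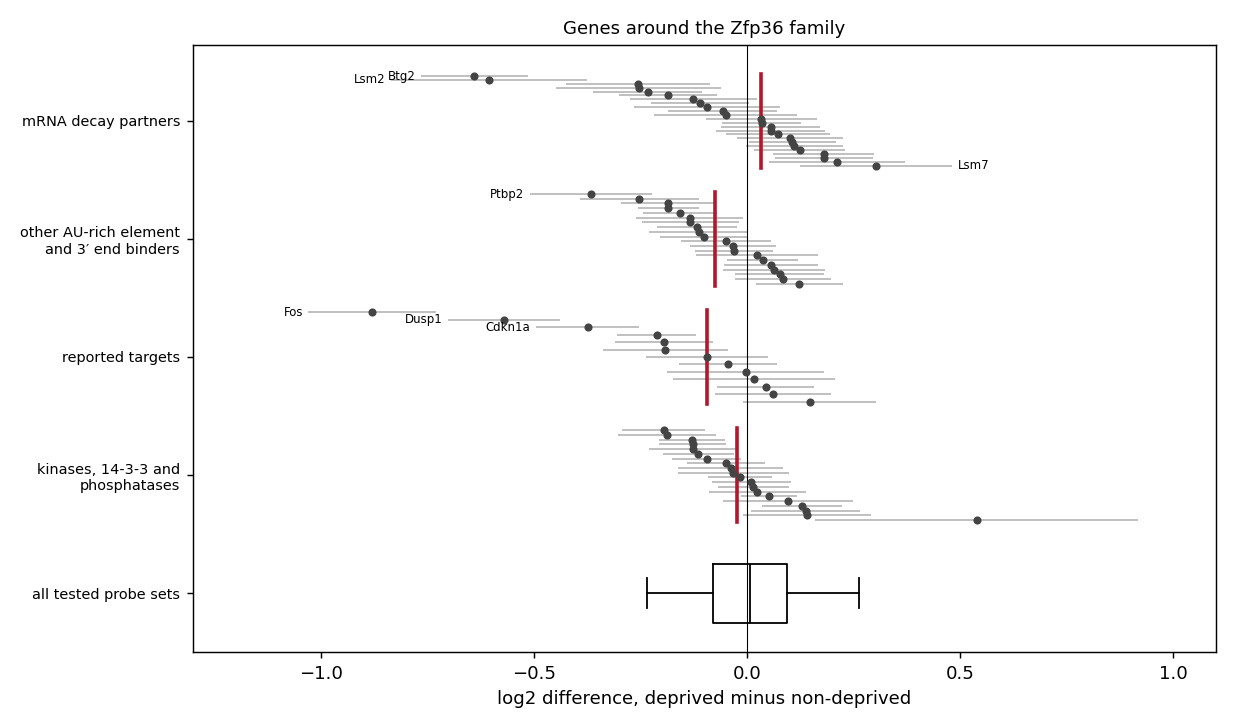
Log2 differences (deprived minus non-deprived) of the tested genes of 4 lists around the Zfp36 family, with SE bars; red lines are list medians, and the box shows all 7453 tested probe sets (median, quartiles, whiskers at the 5th and 95th percentiles). Labels are given to those of the 4 genes with the smallest p in each list whose difference is beyond 0.3 in size. Fos (-0.88) and Btg2 (-0.64) lie farthest below 0.

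Markers of other cell types were present, and the ranges of their summed signals overlapped between groups. The summed signal of 7 measured microglial markers ran from 4685 to 5221 in deprived and from 4389 to 4973 in non-deprived arrays, with Csf1r at 1484 and 1376 and C1qc at 1066 and 922. That of 7 endothelial and pericyte markers ran from 2049 to 2202 and from 2075 to 2303, with Cldn5 at 891 and 1021 and Pecam1 at 329 and 312. The 6 astrocyte markers ran from 16810 to 18170 and from 17090 to 18990, with Aldoc at 7021 and 7643 and Gja1 at 7407 and 7278. The 5 oligodendrocyte markers ran from 17140 to 23720 and from 16040 to 23060, with Mbp at 11127 and 11612 and Mobp at 5694 and 5144. The 6 markers of meninges and choroid plexus ran from 8910 to 16290 and from 8230 to 11970, with Ptgds at 7380 and 5508 and Igf2 at 2588 and 2063. The 3 erythrocyte markers ran from 3487 to 7949 and from 3782 to 5074, with Hba-a1 at 4169 and 3462 and Hbb-b2 at 948 and 913. The 5 neuronal markers ran from 23440 to 28840 and from 24580 to 26790, with Gad1, which makes GABA, at 4653 and 4760. No marker was at 0 on every array, and the smallest limma adjusted p in these lists was 0.992. Tested were 5 neuronal, 6 astrocyte, 4 oligodendrocyte, 7 microglial, 6 endothelial and pericyte, 5 meningeal and choroid plexus and 3 erythrocyte markers. At an unadjusted p under 0.05 in limma, none of these markers was lower and 2 were higher in deprived cortex. Of all tested probe sets, 2.36% were lower and 2.43% higher at that level. The 2 markers were the astrocyte glutamate transporter gene Slc1a2 (log2 0.38 ± 0.14 SE) and the growth factor gene Igf2 (0.30 ± 0.13). Of the 5 tested markers of meninges and choroid plexus, 4 had estimates above 0, with a median of 0.255. The part of cell composition in the family's signals was not tested.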

How the data were processed

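RNA from 10 visual cortex samples (5 deprived, 5 non-deprived, grouped and numbered by their titles) was hybridised to 1 one-colour Affymetrix array each; RNA was isolated with Trizol and about 10 µg of it labelled with biotin, per the labels' protocols. The deposited values are MAS5 signal intensities on a linear scale, per the submitters' processing notes; its version is not given in the sources used here. Every array's mean without its lowest and highest 2% of values was 500, so the authors had scaled the deposited intensities, and changes are relative to the average of an array. Detection calls were not used here, and precision is limited by the number of arrays.

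Tests left out the 66 control probe sets. Symbols came from the platform annotation, updated through Entrez IDs; 10833 of 12422 probe sets had 1 symbol, 396 several and 1193 none. No genome build belongs to the values. Intensities became log2(signal + 16), which understates changes of dim probe sets; those below the 40th percentile of mean log2 signal were left out. The remaining 7453 were fitted with limma 3.58.1 (R 4.3.3; eBayes with an intensity trend; Benjamini-Hochberg over all of them). Each gene of a list was represented by its brightest tested probe set. Correlations within groups were tested over all 14400 rearrangements within groups (SciPy 1.17.1). The limma fit was tested on simulated data. The family, the lists and the tests were chosen with earlier results of these data known. Named are all family probe sets, the 4 smallest p of each pathway list and the 2 brightest of each cell type list. The 5 most similar genes of each member are named too. Tnf, Il6, Il1b, Ier3, Plk3, Socs3, Sgk1, Pim1, Ptgs2, Slc1a2 and Ppp2r1b were chosen after their values were seen. Alternatives covered pseudocount, scaling, filter, intensity trend, replicate block, probe set choice and each array left out.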

Additional observations from a re-analysis of the deposited data

Results flagged for a closer look

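In 5 of 94 groups of 5 arrays (47 named probe sets), 1 array stood apart by more than 0.71 of the group's range; chance alone gives about 1 in 20 groups. Among family members this was Zfp36 in non-deprived replicate 3, at 46.8 against 105.5 to 114.1 on the other 4 arrays. That array also had the highest actin 3′ over 5′ ratio of all arrays, 1.9. Slc38a4, 1 of the 5 genes most like Zfp36, was low on the same array (106 against 130.6 to 136.5). On that array Plk2 was high, at 7868.3 against 5834 to 6193.1. Ppp2r5c was high in non-deprived replicate 2 (3512.5 against 3126.1 to 3217.7), and Gad1 in deprived replicate 1 (6034.2 against 4152.1 to 4462.6).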

How the results depend on the processing

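The log2 difference of 160273_at (Zfp36l2) ran from -0.48 to -0.33 over the 18 alternatives. The family was chosen partly because this probe set was lower in these same arrays, so its unchanged sign is not evidence. The filter, intensity trend and replicate block settings could not change this difference of means (-0.39 in each). With single arrays left out, the other probe sets ranged from 0.31 to 0.84 (Zfp36), -0.11 to 0.01 (Zfp36l1), -0.14 to 0.16 (93944_r_at) and 0 to 0.19 (93943_f_at), and no family probe set passed an adjusted p of 0.05 in the settings that tested it (all for Zfp36l1, 160273_at and 93944_r_at; 12 of 18 alternatives for Zfp36 and 1 of 18 for 93943_f_at). The count over all tested probe sets was 0 in the main fit. It was 2 with a pseudocount of 64 (Junb and Dusp6) and 2 with a filter at the 60th percentile (the same genes). With single arrays left out it was 0 to 5. It was 1 without deprived replicate 4 (Junb) and 5 without non-deprived replicate 1 (Btg2, Junb, Nr4a1, Fos and Dusp6). The cause was not tested. Decay partners called ranged from 0 to 1 and their median from -0.02 (without deprived replicate 1) to 0.05; targets called ranged from 0 to 1 (1 of each without non-deprived replicate 1). With the replicate block, 6 probe sets were called (Capn1, Junb, Nr4a1, Dusp1, Fos and Dusp6), 2 of them targets (Fos and Dusp1). No label states that a replicate number marks shared animals. Deviations of same-numbered samples correlated at 0.0222 to 0.227; 4 of 5 deprived arrays (1 to 4) correlated best with their own number, a hint of pairing from the data and not from the design, and deprived replicate 5 did not. The r of -0.623 between the Zfp36l2 probe sets was -0.684 to -0.539 with single arrays left out and -0.368 with group means kept in. Signals near the lowest of the table limit 93943_f_at and the cytokine targets.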
